A study of Mus musculus with 12 samples.

Results

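The genes described here are the 47 protein-coding genes of the large (60S) subunit of the mouse cytosolic ribosome that were listed by symbol (Rpl3 to Rpl41 with Rplp0, Rplp1 and Rplp2). They were taken out of the 55421 gene rows of a table of RNA sequencing counts, without pseudogenes. All 47 were found, and all 47 passed the filter on low counts. The RNA was that of the mouse small intestine, and each of the 3 groups had 4 libraries, 12 in all. WT is labelled as wild type. Apc carries the genotype VilCreER Apcfl/fl, in which the villin promoter, active in gut epithelium, drives a Cre that tamoxifen switches on and that deletes floxed Apc, a scaffold that restrains Wnt signalling. Apc Eif3h carries VilCreER Apc fl/fl Eif3h fl/fl, so that Eif3h, which encodes a subunit of eIF3, a factor of translation initiation, is deleted as well. All samples share a tamoxifen protocol of 2 injections of 80 mg/kg given 24 hours apart. WT and Apc each hold 3 males and 1 female, and the Apc Eif3h libraries are all from males. WT is labelled day 7, and the deleted groups are labelled day 4, but the protocol text sets the harvest at 7 days for all. Genotype and day therefore cannot be told apart in comparisons with WT. Nothing in the labels ties a replicate to its own animal, so the spread that p-values rest on may be technical.

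The large subunit joins amino acids into protein. Its catalytic centre is made of ribosomal RNA, and its proteins hold that RNA in shape, line the tunnel through which the new chain leaves, form the stalk that recruits the elongation factors, and bridge to the small (40S) subunit. Messages of ribosomal proteins begin with a run of pyrimidines (the 5′ terminal oligopyrimidine tract, TOP), through which mTORC1 and the RNA-binding protein LARP1 control their translation and stability. Crypt epithelium renews the gut lining continuously and makes ribosomes at a high rate. The counts here measure RNA, not ribosomes or translation.

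Most of the promoters found for these genes hold a run of pyrimidines near the annotated start. Promoters in RefSeq (GRCm38.p6) were matched by symbol for 36 of the 47 genes, with 42 promoters among them. The stretches of 30 bases shown here run from 8 bases before the annotated start to 22 after it, 5′ to 3′ on the gene's strand, with the longest run of C and T in capitals. They belong to the genes with the largest (Rpl35, Rpl13a) and smallest (Rpl36al) differences between Apc Eif3h and Apc among those matched, and to genes of the stalk, the Rpl22 pair and other positions described after them.
Rpl35 (chr2:39005110-39005139, minus strand): gCCCTTTCCTCTTTCTCTCgaaccaggctg
Rpl13a (chr7:45128724-45128753, minus strand): tgcgacaagaCCTCCTCCTTTCCCaggcgg
Rpl15 (chr14:18270965-18270994, minus strand): aaagCCTTCTTCCTTTCCTCTggcggcagc
Rplp2 (chr7:141447643-141447672, plus strand): gcgTCTTCCTTTCgccgccggacgccgccg
Rpl38 (chr11:114668572-114668601, plus strand): gcctcgTTCTTTCCCCgttctcttcggttc
Rpl22l1 (chr3:28805500-28805529, plus strand): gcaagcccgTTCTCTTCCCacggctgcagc
Rpl36al (chr12:69184046-69184075, minus strand): gtcgctcaggttcagttccgaCTTCCgctc
Each stretch overlaps an exon of its own gene in GENCODE M21, and that of Rpl35 also an exon of Wdr38. The run is 18 bases long in Rpl35, 17 in Rpl15 and 14 in Rpl13a, and 5 in Rpl36al within this stretch. In Rpl13a, Rpl22l1 and Rpl36al the annotated start is a G that lies before the run. Within 50 bases on either side of the start, a run of at least 8 pyrimidines was present in 85.7% of the 42 promoters and in 35.7% of all 32851 promoters of the table. A run of at least 10 was present in 78.6% and 18.1%. The longest run in this range was only 6 bases in Rpl23 and Rpl24 and 7 in Rplp0. The letters CTTTCC on the sense strand, which lie inside the run of several genes shown, were found within the 300 bases from 250 before the start to 50 after it in 50% of these promoters and 14.1% of all.

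In the same 300 bases, searched on both strands, the core letters of ETS-family binding sites, CGGAAG, were found in 57.1% of the 42 promoters and 16.9% of all. Read on the other strand as CTTCCG they can overlap a run of pyrimidines. The GC box letters GGGCGG stood in 66.7% and 35.7%, the E-box letters CACGTG in 16.7% and 7.15%, the YY1 letters AAGATGGC in 11.9% and 2.75%, and the TATA box letters TATAAA in 11.9% and 13.6%. Several promoters of the same gene count separately here. The YY1 letters came from 3 of the 36 genes, in 5 promoters, and the E-box letters from 5 genes, in 7 promoters. The CGGAAG or CTTCCG nearest the start is shown in capitals, with its neighbouring bases, for 4 genes that recur in the results.
Rpl12 (chr2:32961530-32961559, plus strand): gaacatttacccCTTCCGaatcccgagctc
Rpl35 (chr2:39005241-39005270, minus strand): aggaaggcaggaCTTCCGggaagcggaggg
Rplp2 (chr7:141447531-141447560, plus strand): ggaaatgtcttcCTTCCGgtgcaccctttt
Rpl38 (chr11:114668555-114668584, plus strand): accgtcCGGAAGCGGAAGcctcgttctttc
The letters begin 170 bases before the start in Rpl12, 127 in Rpl35, 108 in Rplp2 and 13 in Rpl38, where a second copy adjoins the first. Each of these stretches overlaps an annotated exon of its own gene, that of Rpl12 also one of Lrsam1 and that of Rpl35 one of Wdr38. These matches describe the sequence only. Genes with and without the CGGAAG letters had median log2 fold changes of 0.61 (23 genes) and 0.68 (13 genes) in Apc against WT, and 0.58 and 0.60 in Apc Eif3h against Apc. For CACGTG, the 5 genes with the letters had medians of 0.75 and 0.65, against 0.63 and 0.58 in the 31 without.

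Library totals lay between 10483112 and 21298301 counts. Eif3h stood at 126 to 142 CPM (counts scaled to library size with TMM factors) in the WT libraries and at 158 to 175 CPM in those of Apc. In the Apc Eif3h libraries 1 to 4 it stood at 28.3, 43.1, 54.6 and 25.9 CPM, low in all 4 without being absent. All 10 epithelial marker genes were above 0 in each library, and their sum lay between 9655 and 13940.0 CPM for WT libraries, 8429 and 9919 for Apc, and 7754 and 11145 for Apc Eif3h. In RNA from tissue, fewer cells of a type and less RNA per cell cannot be told apart. Apc Eif3h library 2 carried B cell RNA, with Ighm at 462 CPM and 1206 CPM summed over B cell markers, against 14.4 to 17.3 CPM in the other 3 libraries of the group. Of the epithelial markers, Krt18 was higher in Apc than in WT, and Vil1, Krt20 and Cldn7 were lower. T cell, macrophage and endothelial markers were lower in Apc than in WT for 6 of 7, 5 of 8 and 6 of 8 tested genes. Smooth muscle, fibroblast and B cell markers were lower for 4 of 8, 1 of 8 and 0 of 5. Of all genes tested 24.1% were called lower. Between Apc Eif3h and Apc, the median log2 fold change was 0.07 for the 10 epithelial markers and -0.54 for the 8 fibroblast markers, all of which were below 0. Markers of T cells, macrophages, endothelium and smooth muscle had medians of 0.48, 0.02, -0.17 and -0.05. The part of these cell types in the results below was not tested.

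The share of all counts that fell on the 47 genes differed between all 3 groups. It was 0.591%, 0.525%, 0.566% and 0.529% in the WT libraries 1 to 4, 1.11%, 0.984%, 0.921% and 1.11% in those of Apc, and 1.75%, 1.76%, 1.19% and 1.45% in Apc Eif3h. The means were 0.553% ± 0.031, 1.03% ± 0.094 and 1.54% ± 0.273 (SD, n = 4 each). No library of one group overlapped another group, although Apc Eif3h library 3, at 1.19%, lay close above the Apc libraries. Without mitochondrially encoded genes in the total, the means were 0.583%, 1.077% and 1.602%. The 34 proteins of the small subunit took nearly the same share. The ratio of large to small subunit counts lay between 0.924 and 0.951 for WT libraries, 0.976 and 0.987 for Apc, and 0.949 and 0.977 for Apc Eif3h. In this ratio the WT and Apc libraries did not overlap, while the range of Apc Eif3h overlapped both. No test of it was made.

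**Figure D1:**
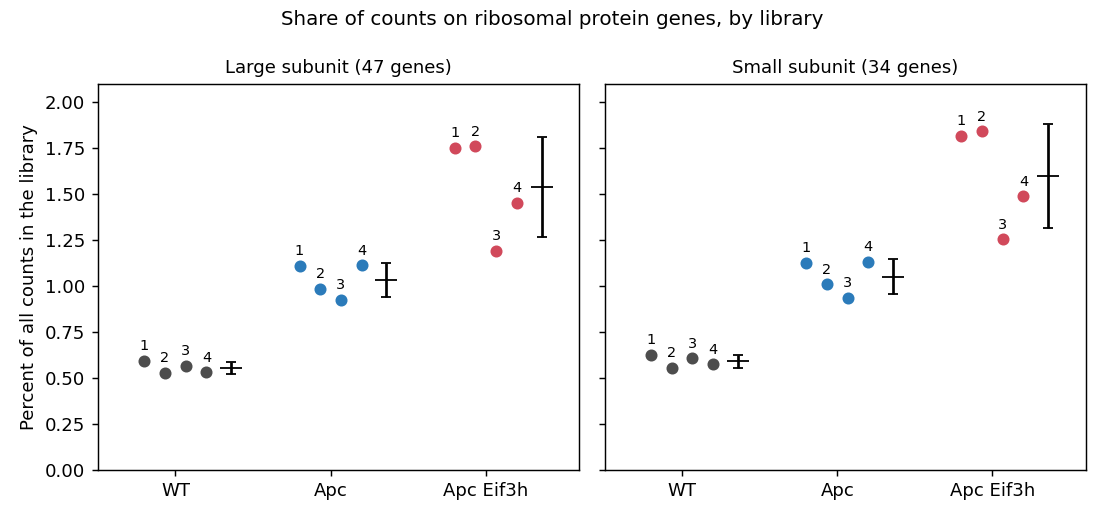
Percent of all counts in each library (y axis) on the 47 large subunit genes (left) and on 34 small subunit genes (right), by group. Each point is a library with its replicate number, and the bar with caps is the mean ± SD of 4 libraries. Large subunit shares lie between 0.525% and 0.591% for WT, 0.921% and 1.11% for Apc, and 1.19% and 1.76% for Apc Eif3h, with library 3 lowest in the last group.

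Deletion of Apc was compared with wild type to see how these genes stand in Apc-deficient intestine. In Apc, 46 of the 47 genes were higher than in WT at an adjusted p below 0.05 (edgeR's quasi-likelihood test, Benjamini-Hochberg over 17394 genes) where 27.7% of all genes tested were called higher. All 47 log2 fold changes were above 0, and 24.1% of all genes were called lower. The median log2 fold change of the 47 was 0.63, against -0.01 over all genes tested. For 43 of the 47, the 4 Apc libraries all lay above the 4 WT libraries, a separation in that direction that 26.7% of all genes showed. The gene that did not pass was Rpl24, a protein of the bridge to the small subunit whose Bst mutation lowers translation in mice. It stood at 17.4, 11.4, 20.8 and 19.2 CPM in WT libraries 1 to 4 and 24.4, 23.5, 19.0 and 21.6 in Apc, which overlap, with a log2 fold change of 0.36 ± 0.18 (SE) and an adjusted p of 0.103.

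The 5S particle consists of Rpl5 and Rpl11, which carry 5S ribosomal RNA into the subunit and, when free, bind Mdm2 and so stabilise p53. Both were higher in Apc. Rpl11 stood at 61.3, 53.6, 56.0 and 56.6 CPM in WT and 101.1, 100.4, 92.7 and 122 in Apc, a log2 fold change of 0.87 ± 0.10 (SE, adjusted p = 3.16e-05). Rpl5 stood at 83.8, 86.1, 82.6 and 63.2 CPM in WT and 145, 138, 127 and 139 in Apc, a log2 fold change of 0.80 ± 0.12 (adjusted p = 2.32e-04). For both genes every Apc library lay above every WT library.

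All 4 stalk genes were higher in Apc. Rplp0, the base of the stalk, stood at 603, 503, 558 and 534 CPM in WT and 1031, 896, 868 and 1027 in Apc, a log2 fold change of 0.80 ± 0.13 (adjusted p = 3.89e-04). Its partners Rplp1 and Rplp2, whose flexible tails contact the elongation factors, had log2 fold changes of 0.62 ± 0.14 and 0.65 ± 0.17. Rpl12, which binds ribosomal RNA beside Rplp0, had the second largest log2 fold change of the 47, at 1.13 ± 0.14 (adjusted p = 7.31e-05). It stood at 77.3, 64.6, 64.9 and 57.1 CPM in WT and 148, 142, 136 and 152 in Apc, so that each Apc library held over 1.5 times the level of the highest WT library.

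Around the catalytic centre and the path of the tRNAs, 6 of 6 genes were higher in Apc, with log2 fold changes between 0.32 and 1.07. Rpl3, which reaches from the surface to the catalytic centre, stood at 100.8, 92.7, 77.4 and 80.3 CPM in WT and 192, 181, 176 and 191 in Apc, a log2 fold change of 1.07 ± 0.14 (adjusted p = 9.17e-05). Rpl36al, a close copy of the E-site protein Rpl36a, had the smallest difference of the 47, at 0.32 ± 0.10 (adjusted p = 0.0216), from 22.9, 17.9, 20.5 and 20.6 CPM in WT to 26.8, 25.8, 23.0 and 26.4 in Apc. Its libraries did not overlap, by a margin of under 1 CPM. The call on Rpl36al was lost when WT library 2, Apc library 1 or Apc library 4 was left out.

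All 8 exit tunnel genes were higher in Apc, with log2 fold changes from 0.51 for Rpl35, which lies at the tunnel's mouth where the signal recognition particle docks, to 0.93 for its neighbour Rpl23a. Of the 4 genes at the subunit interface, 3 were higher, among them Rpl41, the shortest protein of the ribosome, which lies almost wholly between the subunits. Rpl41 stood at 141, 116, 185 and 151 CPM in WT and 238, 241, 184 and 236 in Apc. Its groups overlapped through WT library 3 and Apc library 3, and the log2 fold change was 0.60 ± 0.16 (adjusted p = 0.00787).

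Of the other 21 genes all were higher in Apc. The largest difference of the 47 was that of Rpl27, at 25.3, 21.9, 27.9 and 25.3 CPM in WT and 61.4, 55.8, 42.9 and 60.8 in Apc, a log2 fold change of 1.14 ± 0.16 (adjusted p = 1.52e-04). Rpl13a, which outside the ribosome belongs to a complex that silences inflammatory messages, stood at 40.7, 32.4, 35.3 and 34.7 CPM in WT and 84.1, 68.1, 62.7 and 75.6 in Apc, a log2 fold change of 1.02 ± 0.14 (adjusted p = 1.30e-04). Rpl27, Rpl12, Rpl3 and Rpl13a were the 4 of 47 genes over 2-fold higher, where 9.35% of all genes were. At the low end, Rpl21 stood at 62.0, 47.5, 73.4 and 63.7 CPM in WT and 85.6, 90.9, 67.1 and 81.7 in Apc, with overlap through WT library 3 and Apc library 3. Its log2 fold change of 0.40 ± 0.15 (adjusted p = 0.0390) lost its call when any of 6 libraries was left out (WT libraries 1, 2 and 4 and Apc libraries 1, 2 and 4). Rpl38, known for its part in the translation of Hox messages, had a log2 fold change of 0.43 ± 0.15 and lost its call in the same 6 cases.

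**Figure D2:**
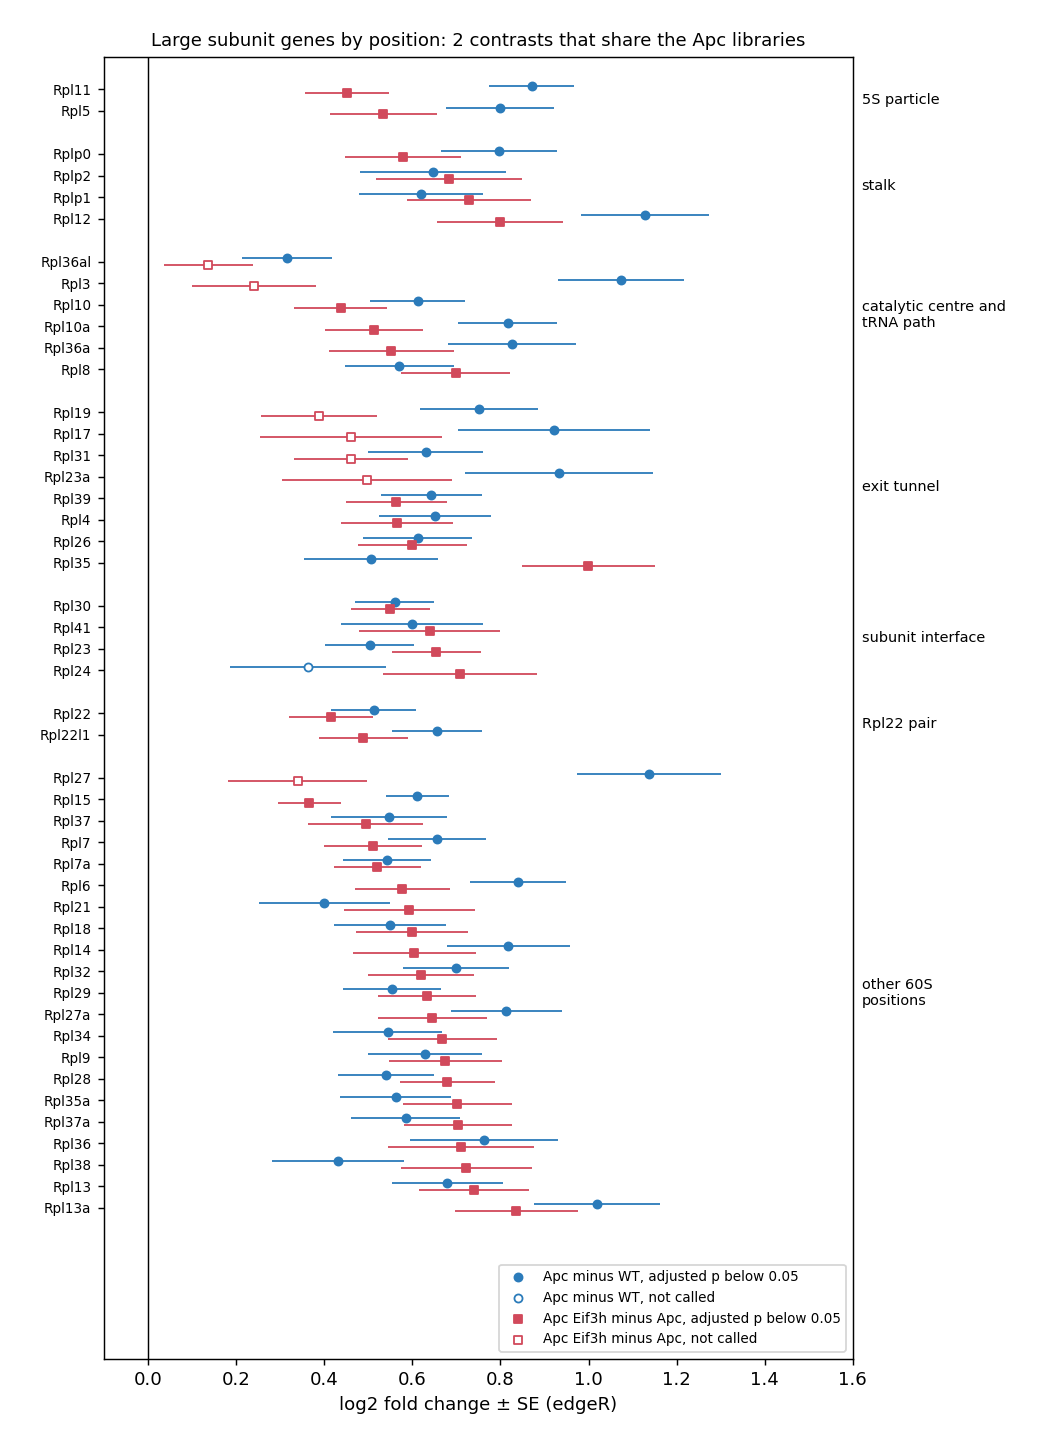
Log2 fold change ± SE (x axis, edgeR) of each large subunit gene, grouped by its place in the ribosome. Blue circles give Apc minus WT and red squares Apc Eif3h minus Apc, both of which use the Apc libraries, and open symbols mark values with an adjusted p of 0.05 or more. All values lie above 0, with 1 open circle (Rpl24) and 7 open squares.

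Loss of Eif3h was examined on the Apc-deficient background by comparing Apc Eif3h with Apc. In Apc Eif3h, 40 of the 47 genes were higher than in Apc (edgeR's quasi-likelihood test, adjusted p below 0.05), where 4.27% of all 17394 genes were called higher and 2.78% lower. All 47 log2 fold changes were above 0, from 0.14 to 1.0, with a median of 0.59, where the median over all genes was close to 0. For 40 of the 47 the Apc Eif3h libraries all lay above the Apc libraries, where 7.89% of all genes were separated in that direction and 7.26% in the other. The count of calls changed with the libraries in the fit, and the share of all genes called changed with it. Without Apc library 3, the lowest of its group in 44 of the 47 genes, 19 of 47 were called with a median of 0.53, where 1.37% of all genes were called higher. Those 19, among them Rpl35, Rpl13a, Rpl12, Rpl8, Rplp1 and Rpl15, kept their call when any 1 of the 12 libraries was left out. The other 21, among them Rpl4, Rpl36a, Rpl22 and Rpl22l1, lost it without Apc library 3, and most of them without other libraries too. With male libraries only, 26 were called and the median was 0.62, where 2.24% of all genes were called higher. Without Apc Eif3h library 2, which carried the B cell RNA, 28 were called with a median of 0.52 (2.37% of all genes), and without Apc Eif3h library 3, 44 were called with a median of 0.69 (6.51% of all genes).

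Rpl35 had the largest difference. It stood at 62.1, 63.7, 51.5 and 72.9 CPM in Apc libraries 1 to 4 and 146, 145, 91.3 and 117.8 in Apc Eif3h, a 2.00-fold difference with a log2 fold change of 1.0 ± 0.15 (SE, adjusted p = 0.00443). Even its lowest Apc Eif3h library lay above the highest Apc library. The 7 other genes of the exit tunnel had log2 fold changes between 0.39 and 0.60, of which those of Rpl4, Rpl26 and Rpl39 passed the test. Rpl4, which narrows the tunnel together with Rpl17, stood at 1378, 1247, 1189 and 1356 CPM in Apc and 2173, 1997, 1615 and 1859 in Apc Eif3h (log2 fold change 0.56 ± 0.13, adjusted p = 0.0220).

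The 4 exit tunnel genes that did not pass were Rpl17, Rpl19, Rpl23a and Rpl31. Rpl31, whose adjusted p was 0.0504, stood at 91.4, 90.6, 74.4 and 92.8 CPM in Apc and 129, 136, 106 and 109.8 in Apc Eif3h, with no overlap. Rpl19 had a mean ± SD of 58.4 ± 9.40 CPM over the 4 Apc libraries and 76.4 ± 10.4 over those of Apc Eif3h, with a log2 fold change of 0.39 ± 0.13 (adjusted p = 0.0956). Rpl17 and Rpl23a were the genes with the fewest counts, at 14.3 ± 1.10 and 6.20 ± 1.37 CPM in Apc, and had log2 fold changes of 0.46 ± 0.21 and 0.50 ± 0.19 (adjusted p = 0.200 and 0.142). When counts of pseudogenes were added to each gene, all 4 passed.

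All 4 stalk genes were higher in Apc Eif3h than in Apc. Rplp0 stood at 1031, 896, 868 and 1027 CPM in Apc and 1701, 1455, 1163 and 1385 in Apc Eif3h, a log2 fold change of 0.58 ± 0.13 (adjusted p = 0.0226). Rplp1, at 764, 656, 601 and 740.5 CPM in Apc, reached 1342, 1259, 933 and 1043 in Apc Eif3h, a log2 fold change of 0.73 ± 0.14 (adjusted p = 0.0110). For Rplp2 the levels were 371, 355, 279 and 362 CPM in Apc and 580.1, 678, 450.0 and 489 in Apc Eif3h, a log2 fold change of 0.68 ± 0.17 (adjusted p = 0.0291). Rpl12 had the third largest difference of the 47, from 148, 142, 136 and 152 CPM in Apc to 309, 280.2, 182 and 233 in Apc Eif3h, a log2 fold change of 0.80 ± 0.14 (adjusted p = 0.00819). In each of these genes library 3 was the lowest of the Apc Eif3h libraries and still above all Apc libraries. The call on Rplp2 was lost when any of 6 libraries was left out (Apc libraries 1 to 4 and Apc Eif3h libraries 1 and 2). That on Rplp0 was lost without any of 4 (Apc libraries 2 and 3 and Apc Eif3h libraries 1 and 2). Both were lost with males only, and the calls on Rplp1 and Rpl12 were kept without any 1 library.

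The 5S particle genes were higher too. Rpl5 stood at 236, 210.3, 163 and 186 CPM in Apc Eif3h against the Apc values given above, a log2 fold change of 0.53 ± 0.12 (adjusted p = 0.0225), and Rpl11 at 160.4, 145, 133 and 130.1 CPM, a log2 fold change of 0.45 ± 0.10 (adjusted p = 0.0167). At the subunit interface 4 of 4 genes were higher. Rpl24, which had not passed between Apc and WT, stood at 34.6, 46.0, 32.02 and 31.8 CPM in Apc Eif3h, above all Apc libraries, with a log2 fold change of 0.71 ± 0.17 (adjusted p = 0.0306). Rpl41 stood at 408, 408, 281 and 303 CPM, a log2 fold change of 0.64 ± 0.16 (adjusted p = 0.0335). The calls on Rpl24 and Rpl41 were lost when any of the same 6 libraries as for Rplp2 was left out, and with males only. Rpl5 lost its call without any of 5 libraries (Apc libraries 2, 3 and 4 and Apc Eif3h libraries 1 and 2), and Rpl11 without Apc library 3 and with males only.

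Around the catalytic centre, 4 of 6 genes were higher in Apc Eif3h, namely Rpl8, Rpl36a, Rpl10a and Rpl10. The call on Rpl36a was lost when any of 8 libraries was left out, and that on Rpl10 when any of 5 was. That on Rpl10a was lost without Apc library 2 or 3, and that on Rpl8 was kept without any 1 library. Rpl8, which lies at the catalytic centre, stood at 836, 752, 697 and 844 CPM in Apc and 1405, 1413, 1066 and 1194 in Apc Eif3h (log2 fold change 0.70 ± 0.12, adjusted p = 0.00790). Rpl3, among the 3 largest differences between Apc and WT, stood at 192, 181, 176 and 191 CPM in Apc and 243, 265, 156 and 211 in Apc Eif3h, where library 3 lay under every Apc library. Its log2 fold change was 0.24 ± 0.14 (adjusted p = 0.325). Rpl36al stood at 26.8, 25.8, 23.0 and 26.4 CPM in Apc and 25.1, 32.4, 27.5 and 27.0 in Apc Eif3h, which overlap, with a log2 fold change of 0.14 ± 0.10 (adjusted p = 0.446).

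Of the other 21 genes 20 were higher, with the largest difference in Rpl13a. It stood at 84.1, 68.1, 62.7 and 75.6 CPM in Apc and 138, 159, 96.9 and 124 in Apc Eif3h, a log2 fold change of 0.84 ± 0.14 (adjusted p = 0.00670). The exception, Rpl27, stood at 61.4, 55.8, 42.9 and 60.8 CPM in Apc and 82.9, 80.9, 49.4 and 66.2 in Apc Eif3h, where library 3 lay within the Apc range, and had a log2 fold change of 0.34 ± 0.16 (adjusted p = 0.217). The remaining 19 had log2 fold changes between 0.37 for Rpl15 and 0.74 for Rpl13. Rpl15 combined one of the smaller differences with the smallest SE of the 47 (0.37 ± 0.07), from 75.9, 65.3, 65.0 and 70.3 to 92.6, 92.1, 82.2 and 89.4 CPM.

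**Figure D3:**
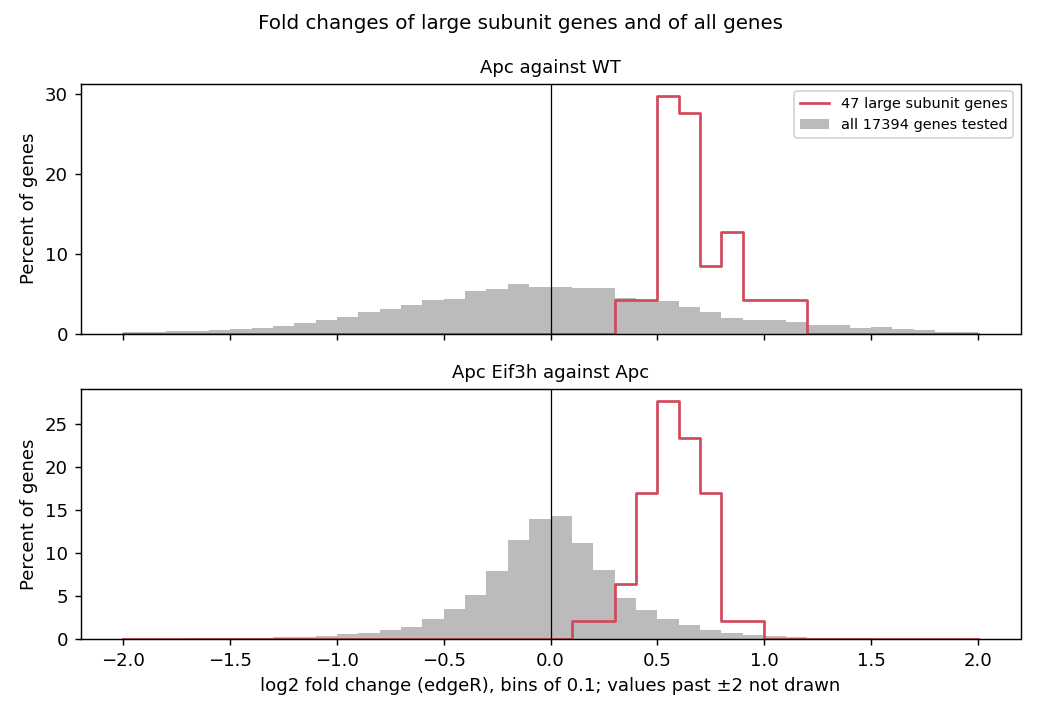
Distribution of log2 fold changes (x axis, edgeR, in bins of 0.1) as a percent of genes (y axis), for all 17394 genes tested (grey bars) and the 47 large subunit genes (red line), in Apc against WT (top) and Apc Eif3h against Apc (bottom). The red line lies to the right of 0 in both panels, with medians of 0.63 and 0.59, while the grey bars centre on 0 and are narrower in the lower panel.

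Within Apc Eif3h, the libraries ranked alike across the genes. Library 3 was the lowest of the 4 in 43 of the 47 genes, and libraries 1 and 2 were the highest in 23 and 24. Library 3 also had the highest remaining Eif3h, at 54.6 CPM, but library 4, with the lowest at 25.9 CPM, was the highest library in none of the 47 genes. With 4 libraries no relation between Eif3h and these genes was computed, and the part of remaining Eif3h was not tested. Library 1 was above all Apc libraries in 46 genes, libraries 2 and 4 in 47 and library 3 in 41. In Apc, library 3 was lowest in 44 of 47 genes and library 1 highest in 26. In WT, library 2 was lowest in 39 and library 3 highest in 26.

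Apc Eif3h against WT gives the whole distance between the double deletion and wild type. All 47 genes were higher (edgeR's quasi-likelihood test, adjusted p below 0.05), where 29.8% of all genes were called higher, and all 47 were separated without overlap, where 26.9% of all genes were. The median log2 fold change was 1.26 (all genes -0.03), and 43 of the 47 were over 2-fold higher, where 11.8% of all genes were. Rpl12 led at 1.93 ± 0.15 (SE, 3.80-fold, adjusted p = 3.94e-06), followed by Rpl13a at 1.86 ± 0.15 and Rpl35 at 1.51 ± 0.15. The 4 genes under 2-fold were Rpl36al at 0.45 ± 0.10 (adjusted p = 0.00251), Rpl22 at 0.93 ± 0.10, Rpl15 at 0.98 ± 0.07 and Rpl21 at 0.99 ± 0.15. All 47 were called when any 1 library was left out and under every other setting tried. The other comparisons share the Apc libraries, so their values for a gene are not independent of one another.

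Genes of the large subunit include pairs of close copies whose ratio within a library does not depend on scaling. Rpl22 binds RNA at the outer face of the subunit, and Rpl22l1 is its copy, which Rpl22 is known to hold down in several tissues. Rpl22 had 198, 169.6, 212 and 184 CPM in the WT libraries, 282, 271.5, 248 and 286 in those of Apc and 397, 392, 327 and 334 in those of Apc Eif3h, which step up without overlap. Rpl22l1 had 50.1, 48.6, 59.8 and 50.9 CPM in the WT libraries, 89.1, 80.5, 74.5 and 85.7 in those of Apc and 133, 120.4, 99.8 and 109 in those of Apc Eif3h. Both were higher in Apc than in WT (adjusted p = 9.25e-04 and 2.63e-04) and in Apc Eif3h than in Apc (adjusted p = 0.0247 and 0.0150, edgeR). The ratio of Rpl22l1 to Rpl22 counts lay between 0.253 and 0.286 for WT libraries, 0.297 and 0.315 for Apc, and 0.305 and 0.336 for Apc Eif3h. The mean log2 ratio was 0.14 higher in Apc than in WT and 0.21 higher in Apc Eif3h than in WT, without overlap in either case (exact two-sided permutation tests, p = 0.0286, the smallest that 4 against 4 libraries can give, adjusted over 6 tests to 0.0429). Between Apc Eif3h and Apc it differed by 0.07, with overlap (exact permutation p = 0.143, adjusted 0.143). Rpl22l1 shares 57.3% of its 36-base words with other genes and Rpl22 8.23%. Of the counts on each gene and its pseudogenes, 24.0% and 9.02% lay on the pseudogenes. The part of these copies in the ratio was not tested.

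Rpl36al was lower relative to Rpl36a in both deleted groups than in WT. Rpl36a had 29.8, 31.7, 34.1 and 31.5 CPM in the WT libraries, 69.5, 53.0, 47.4 and 55.7 in those of Apc and 90.7, 99.2, 61.6 and 79.1 in those of Apc Eif3h, and its log2 fold changes were 0.83 ± 0.15 in Apc against WT (adjusted p = 5.80e-04) and 0.55 ± 0.14 in Apc Eif3h against Apc (adjusted p = 0.0375, edgeR). The ratio of Rpl36al to Rpl36a counts was 0.768, 0.566, 0.6 and 0.654 in WT libraries 1 to 4, 0.386, 0.486, 0.484 and 0.473 in Apc, and 0.276, 0.326, 0.448 and 0.342 in Apc Eif3h. The mean log2 ratio differed from that of WT by -0.50 in Apc and by -0.91 in Apc Eif3h, without overlap (exact two-sided permutation p = 0.0286, adjusted 0.0429). Between Apc Eif3h and Apc the difference was -0.41, with overlap (exact permutation p = 0.0571, adjusted 0.0686). Rpl36a (chrX:134585654-134588062) shares 86.4% of its 36-base words with other genes and Rpl36al (chr12:69182731-69184083) 18.1%, so that reads of Rpl36a in particular may have been split among copies, whose part in the ratio was not tested.

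**Figure D4:**
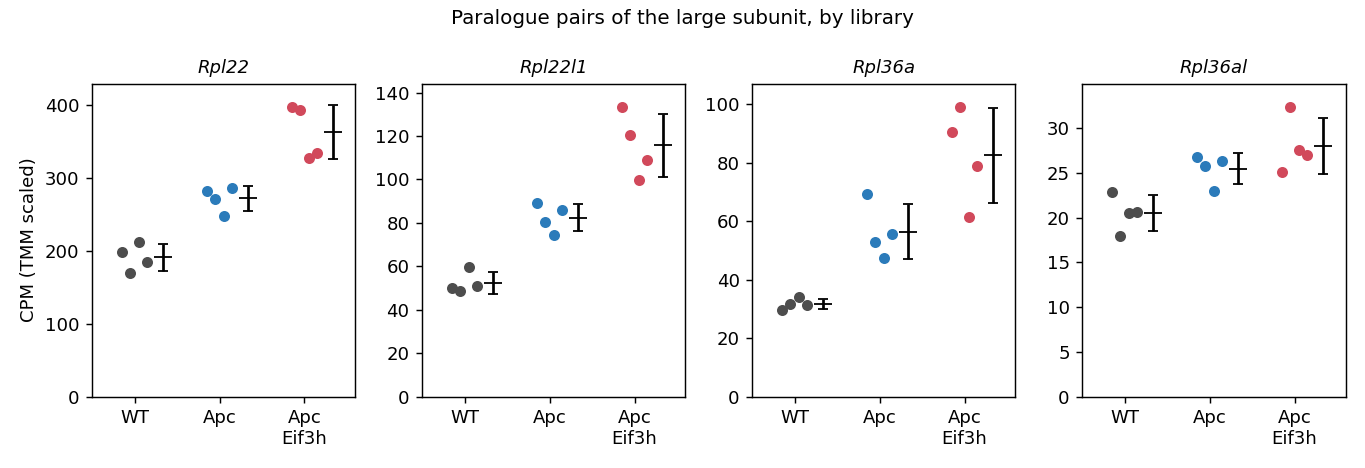
CPM (y axis, TMM scaled) of Rpl22, Rpl22l1, Rpl36a and Rpl36al in each library (points) by group, with mean ± SD of 4 libraries (bars with caps). The group means of Rpl22, Rpl22l1 and Rpl36a step up across the groups, while Rpl36al stays between 17.95 and 32.4 CPM. The Apc and Apc Eif3h libraries overlap for Rpl36a and Rpl36al.

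The genes differed far more among themselves than between groups. Per kilobase of annotated exons, Rplp1 was the highest, with means of 900.2, 1384 and 2293 CPM in the 3 groups in the same order, and Rpl23a the lowest at 3.80, 7.32 and 10.3. Their ratio was 237, 189 and 223 in that order. After Rplp1 came Rpl4 at 409.8, 644 and 952 CPM per kilobase. Rpl8 was the third at 388 in WT and 934 in Apc Eif3h, while in Apc it lay within 1 CPM per kilobase of Rplp0. In counts, the top 5 genes of each group held 43.6%, 43.5% and 44.0% of all counts on the 47. Without division by length, Rpl4 was the highest in WT (mean 822 CPM), followed by Rplp0 (550), Rpl8 (527) and Rplp1 (449). The length used merges all annotated exons of a gene, whether or not the tissue uses them. It was 499 bases for Rplp1 and 4043 for Rpl18, so the order per kilobase depends on this measure.

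Reads of 36 bases limit how these genes can be counted. Ribosomal protein genes have left many processed copies in the genome, and all 47 genes share some stretches of 36 bases with other annotated genes, over a median of 42.1% of such stretches, 16 of them over more than 50%. The share was lowest in Rpl8 at 7.59% and highest in Rpl36 at 91.1%. The reads came in pairs, but the stretches were compared singly, so these shares are not those of ambiguous read pairs. Rpl23a shared 83.0% and had 38 pseudogenes with common stretches, to which 87.5% of the counts on the gene and these copies together were assigned. For Rpl17 (chr18:74998558-75003381) that share was 81.7%, for Rpl24 73.6% and for Rpl13a 69.1%, whereas for Rpl8 it was 0.00119%. A level of these genes is therefore the part that the authors' counting left on the gene itself, and comparisons of level between genes are uncertain.

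Many copies were called in the same direction. Of 1007 pseudogenes that share stretches of 36 bases with the 47 genes, 183 passed the filter. Of these, 87 were called higher in Apc than in WT (1 lower, median log2 fold change 0.53), where 27.7% of all genes were. Called higher in Apc Eif3h than in Apc were 69 (median 0.61, edgeR's quasi-likelihood test), where 4.27% of all genes were. The 11 genes of the 47 that share under 25% of their stretches had a median of 0.56 in Apc against WT, where 11 were called higher. In Apc Eif3h against Apc their median was 0.56, and 9 were called higher. The part of shared reads in these differences was not tested. The counts of the pseudogenes were also added to each gene, an alternative chosen after seeing the data. Then 47 of 47 were called higher in Apc than in WT (27.6% of all genes) and 44 of 47 in Apc Eif3h against Apc (3.92%). Across the 47 genes, the log2 fold change in Apc against WT had a Spearman correlation of 0.44 with the share of common stretches, and that in Apc Eif3h against Apc one of -0.03 (genes are not independent replicates and no test was made). Rpl12 overlaps Lrsam1 on the other strand, Rpl35 overlaps Wdr38 and Arpc5l, Rpl3 overlaps Syngr1 and Rpl5 overlaps Fam69a. The sources used here do not give the strand setting of the counting, so reads of such partners cannot be told apart.

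Many of these genes host small nucleolar RNAs, which guide the modification of ribosomal RNA, in their introns. Of the 47 genes 19 held 38 annotated small nucleolar RNAs. Their median log2 fold changes were 0.68 in Apc against WT and 0.56 in Apc Eif3h against Apc, against 0.61 and 0.60 in the 28 genes without. Of the hosts 16 of 19, and of the others 24 of 28, were called higher in Apc Eif3h than in Apc, where 4.27% of all genes were.

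The proteins of the small subunit had similar counts of calls and medians. Over all genes tested, 27.7% were called higher in Apc than in WT and 4.27% in Apc Eif3h than in Apc. Of 34 genes, 30 were higher in Apc than in WT (median log2 fold change 0.61), among them Rps2 at 1.12 ± 0.13 (SE, adjusted p = 3.25e-05) and Rpsa at 0.99 ± 0.12 (adjusted p = 5.09e-05). In Apc Eif3h against Apc 30 of 34 were higher again (median 0.63), among them Rps6, the substrate of S6 kinase, at 0.80 ± 0.11 (adjusted p = 0.00266, edgeR's quasi-likelihood test). Fau, which encodes a small subunit protein fused to a ubiquitin-like one, differed from the large subunit genes in sign in Apc against WT, at -0.21 ± 0.11 (adjusted p = 0.124), and was higher in Apc Eif3h than in Apc.

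Factors that assemble the large subunit, some of them only after its export, had a larger median in Apc against WT than the subunit's own proteins. Their median in Apc Eif3h against Apc was smaller than that of the proteins. In Apc against WT, 27.7% of all genes tested were called higher. The 6 factors not called in Apc against WT were Eif6 (-0.28), Sbds (-0.27), Zfp622 (-0.19), Aamp (-0.15), Efl1 (-0.14) and Nop53 (0.06, all log2 fold changes). Of 48 assembly factors, 42 were higher in Apc than in WT, with a median log2 fold change of 1.04, among them Rrp15 at 1.84 ± 0.15, Mrto4, which holds the place of Rplp0 in the maturing stalk, at 1.74 ± 0.15, and Lsg1, the GTPase that releases Nmd3 from the exported subunit, at 1.01 ± 0.09. Against Apc, 4 of 48 (8.33%) were higher in Apc Eif3h, where 4.27% of all genes were, with a median of 0.26. They were Nsa2 at 0.46 ± 0.08, Nmd3, the export adaptor of the large subunit, at 0.37 ± 0.08, Zfp622 at 0.41 ± 0.09, and Eif6, which binds Rpl23 and keeps the subunits apart, at 0.79 ± 0.14 (adjusted p = 0.00767, 0.0186, 0.0224 and 0.00771). No test of the difference between the lists was made.

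Elongation factors and other genes listed as having messages with a pyrimidine tract formed a further list. The tract was not checked in the genes of this list, Gnb1 included. Of 16 such genes, 11 were higher and 2 (Vim and Gnb1) lower in Apc than in WT, with a median of 0.54. Over all genes tested, 27.7% were called higher and 24.1% lower in that comparison. Against Apc, 6 were higher in Apc Eif3h, with a median of 0.32. Those 6 were Eef1b2 at 0.92 ± 0.13, Eef1a1 at 0.71 ± 0.18, Eef2 at 0.69 ± 0.15, Eef1g at 0.68 ± 0.12, Tpt1 at 0.64 ± 0.11 and Eif4a2 at 0.32 ± 0.08, of which the first 4 carry tRNA or move the ribosome along, or recharge the factor that does. Of 48 tested proteins of the large subunit of the mitochondrial ribosome, 29 were higher and 1 lower in Apc than in WT (median 0.27), and 3 (6.25%: Mrpl35, Mrpl12 and Mrpl9) were higher in Apc Eif3h than in Apc (median 0.19), where 4.27% of all genes were.

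**Figure D5:**
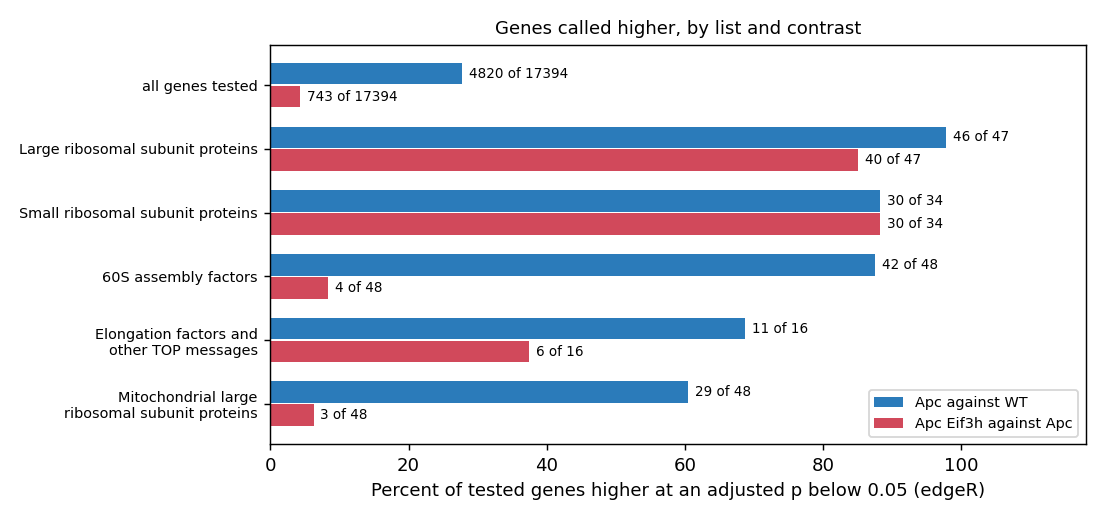
Percent of the tested genes of each list (x axis) called higher at an adjusted p below 0.05 (edgeR), in Apc against WT (blue) and Apc Eif3h against Apc (red), with the count beside each bar. The large and small subunit genes stand at 46 of 47 and 30 of 34 in the first and 40 of 47 and 30 of 34 in the second, while 60S assembly factors go from 42 of 48 to 4 of 48. The share of all genes tested also falls, from 27.7% to 4.27%.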

How the data were processed

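Per the labels' protocols, column-purified RNA (RNeasy Micro) was made into TruSeq libraries and read in pairs of 36 cycles on an Illumina NextSeq. The authors deposited whole-number counts per gene, not normalized. Tools named in the submitters' processing notes are HISAT2 2.1.0 and featureCounts 1.6.4, with FastQC 0.11.8 and Trim Galore 0.6.4, and the build is GRCm38. How strand and reads with several matches were handled is not given in the sources used here. Of 55421 identifiers 55240 matched GENCODE M21, the source of symbols, coordinates and exon lengths, and the other 181 held 0.00226% of counts.

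All 12 libraries entered 1 quasi-likelihood fit (edgeR 4.0.16, R 4.3.3), with 1 mean per group, TMM factors, glmQLFit with legacy set to FALSE and the filter filterByExpr by group, and p-values were adjusted by Benjamini-Hochberg over the 17394 genes that passed. Standard errors are the absolute log2 fold change over the square root of F. CPM are TMM scaled over the genes tested. Library totals of 10483112 to 21298301 counts set the precision, and tests use the variation among libraries. DESeq2 1.42.0, other scalings and filters, a replicate block, males only and left-out libraries were alternatives. The procedure was also run on simulated counts. Those were drawn for each gene on its own, so the run cannot speak for shifts that many genes of a library share.

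The members and gene lists were chosen with earlier results of these data known. Values per library are given for 10 members fixed by rule, the 3 highest and 3 lowest of each contrast, the highest and lowest levels, and members left uncalled, and Rpl4, Rpl8, Rpl38, Eef1a1, Eef2 and Eif4a2 were added after their values were seen. Genes of other lists are up to 3 called with the smallest p, or all of 5 or fewer, with the 6 assembly factors not called in Apc against WT added. The labels do not tie same-numbered libraries together, and correlations of their deviations ran from -0.14 to 0.24, so the numbers were not taken as pairs. Among the 47 genes, however, library 3 was lowest in 44 in Apc and in 43 in Apc Eif3h, so a pairing is not excluded. With a replicate block, 35 of the 47 were called higher in Apc Eif3h than in Apc, where 3.41% of all genes were.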

Additional observations from a re-analysis of the deposited data

Results flagged for a closer look

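In 13 of the 141 sets of 4 libraries (47 genes in 3 groups), 1 library lay far outside the other 3 by Dixon's test, of which chance alone flags about 1 in 20. Of these, 12 fall on WT library 2 or Apc library 3, each low. The genes of 1 library share its scaling and are not independent. In WT library 2, Rplp1 stood at 374 CPM (others 470 to 479), Rpl32 at 239 (283 to 290), Rpl37a at 61.0 (76.0 to 78.3), Rpl9 at 57.3 (69.96 to 71.8) and Rpl35a at 32.3 (39.8 to 41.1). In Apc library 3, Rpl41 stood at 184 CPM (236 to 241), Rpl18 at 155 (187 to 194), Rpl34 at 141 (167 to 172), Rpl37 at 132 (153 to 155), Rpl7a at 105 (125 to 126), Rpl38 at 79.6 (90.6 to 92.3) and Rpl31 at 74.4 (90.6 to 92.8). The remaining value is Rpl5 in WT library 4, at 63.2 CPM against 82.6 to 86.1. Without WT library 2, 43 of 47 genes were called higher in Apc than in WT, with a median log2 fold change of 0.58, where 25.9% of all genes were. Without Apc library 3, 19 of 47 were called higher in Apc Eif3h than in Apc (edgeR), with a median of 0.53, where 1.37% of all genes were.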

How the results depend on the processing

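No alternative gave a lower call on any of the 47 genes in any comparison. In Apc Eif3h against WT all 47 were called in each, where 14.8% (DESeq2) to 38% (library totals only) of all genes were called higher. In Apc against WT the count of 46 ranged from 43 to 47 (43 to 46 with a library left out). The share of all genes called higher was 21.5% with males only, where 43 were called, and 39.2% with library totals only, where 47 were. In Apc Eif3h against Apc the count of 40 ranged from 19 (without Apc replicate 3) to 44 (without Apc Eif3h replicate 3) with a library left out, where the share of all genes called higher ran from 1.37% to 6.51%. It was 26 with males only (2.24% of all genes), where the fit holds fewer libraries. It was 41 with DESeq2 (3.03% of all genes), 40 with RLE factors (4.01%) and 36 with library totals only (2.79%). Without the filter it was 37 (1.46%), and with the 2 groups alone 36 (3.39%). It was 44 with counts added of named pseudogenes (4.16%) or of those that share 36-base words (3.92%). With DESeq2 and without the filter the shares are over 34982 genes. The median of 0.59 lay between 0.52 and 0.69. With library totals only, the median was 0.87 in Apc against WT and 1.48 in Apc Eif3h against WT, and that scaling also moved the median of all genes to 0.22 and 0.17. With the replicate block the counts were 44 in Apc against WT, 35 in Apc Eif3h against Apc and 47 in Apc Eif3h against WT. The shares of all genes called higher were then 26.9%, 3.41% and 29%. The numbers share no stated origin, and correlations of same-numbered libraries ran from -0.14 to 0.24. For the 22 named genes, 1293 alternative values kept their side of the threshold, 75 lost it, 18 gained it and none reversed. The 6 ratio differences kept their sign in all alternatives, and no test of them was made with a library left out or with a block. Depth, short reads, copies and the unstated counting rules all limit the levels.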
